A study of Neurospora crassa with 12 samples.

Results

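The 6 high-phosphate (high-Pi) RNA-Seq libraries of a *Neurospora crassa* series of 12 were compared between strains, as the libraries labelled *mus-52* over the wild type. The rule took every gene of the 2 count tables, 3 biological replicates (I, II and III) against 3, so that the members are all 9730 counted genes, of which 7746 passed the filter on low counts and were tested. The wild type was St.L.74-OR23-1VA (*mat A*) and the other was a *mat a*, *mus-52*::*hyg* strain of the Fungal Genetics Stock Center, in which a hygromycin resistance cassette replaces *mus-52*. Conidia from 6 day cultures of both strains had been shaken at 30°C over 5 h of germination in medium of pH 5.4 with 10 mM Pi and 44 mM sucrose, and the other 6 libraries of the series came from 0.01 mM Pi (low-Pi). The mutant is 1 strain, and the mating type differs wherever the *mus-52* allele does, so that *mus-52*, the mating type and any other difference between these 2 strains cannot be told apart for any gene below. The sources give no culture, extraction or sequencing batch for the replicates, so that p-values measure the spread between these libraries.

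*mus-52* encodes the Neurospora counterpart of Ku80, which with Ku70 (*mus-51*) holds broken DNA ends for non-homologous end joining, while DNA ligase IV (*mus-53*) seals them. Strains without this pathway integrate foreign DNA by homology and are widely used to make gene knockouts in this fungus. A germinating conidium uses up its stored reserves, builds ribosomes and starts hyphal growth, and when phosphate is ample the NUC-1 transcription factor, which turns on phosphate scavenging genes, is held inactive by the PREG and PGOV kinase complex.

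The library totals ran from 17574263 to 32392814 counts in the wild type and from 23996104 to 56152963 in the libraries labelled *mus-52*. Values below are CPM (edgeR's counts scaled to a common library total, with TMM factors), and log2 fold changes are those of the labelled *mus-52* libraries over the wild type. Wild-type replicate I stood apart from its group. Its Pearson correlation over log2 CPM was 0.951 and 0.941 with wild type II and III, which correlated at 0.988 with each other, while the libraries labelled *mus-52* correlated at 0.991 to 0.993. The low-Pi wild-type replicate I, which enters the spread of the fit, correlated at 0.964 to 0.971 with the high-Pi libraries labelled *mus-52* and at 0.933 and 0.931 with the other low-Pi wild-type libraries. Its share of counts on mating and pheromone genes (0.00791%) was nevertheless that of the wild type (0.00603% and 0.00532% in the other low-Pi wild-type libraries) and not that of the low-Pi libraries labelled *mus-52* (0.0937% to 0.303%). For some of the calls and counts that change when either library is left out, the value without it is given. Not every such change is printed, so that a count given without such a value may change as well.

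The disrupted gene itself was counted in every library. *mus-52* (NCU00077, NC12 assembly, chromosome III, 2531930 to 2535354) had 3246, 609 and 465 counts in wild type I, II and III and 1344, 513 and 831 counts in the libraries labelled *mus-52*. In CPM these were 75.9, 37 and 24 against 23.9, 21 and 22.7, and the groups did not overlap. The log2 fold change was −1.02 (SE 0.38, edgeR adjusted p = 0.044), and it was −0.43 (adjusted p = 0.23) without wild-type replicate I. With that replicate left out in both media it was −0.47 (adjusted p = 0.013). The count of this gene therefore does not separate the strains as a deletion would, and the counts do not say which part of the gene was read. The pheromone genes did separate them. The pheromone precursor *mfa-1*, which *mat a* strains make, and *ccg-4*, the pheromone precursor of *mat A* strains, stood at opposite ends of the comparison. The *mat A* genes themselves had too few counts to do so, with 3, 1 and 0 counts of *matA-2* and 9, 0 and 0 counts of *matA-3* in wild type I, II and III and 0 in every library labelled *mus-52*. β-tubulin (*Bml*) had a log2 fold change of 0.05 (adjusted p = 0.82). Actin (NCU04173) had 1 count in wild-type replicate I and 0 in the other 5 libraries and serves as no reference in this table, and the 898 genes with more than 1 annotated transcript had a median level of 0.0943 CPM against 21.4 CPM for the others. Such genes are named as having several transcripts below, and most of them had few counts.

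A gene was taken as differentially expressed (DEG) where the adjusted p was 0.05 or less and the log2 fold change was 1.5 or more in size. By this criterion 1475 genes were DEGs (19% of those tested). These were 569 up-regulated genes (7.35%) and 906 down-regulated genes (11.7%). The 3 libraries of each strain did not overlap for 568 DEGs that rose and 847 that fell. Over all genes tested 60.5% did not overlap, 31.6% with the libraries labelled *mus-52* higher and 28.9% with them lower. Changes of more than 3 on the log2 scale were seen in 104 genes that rose and 234 that fell, and the median over all genes tested was −0.02. The genes that fell include some with no count in the libraries labelled *mus-52*, whose fitted fold change is no bound. Up-regulated genes took 2.43%, 1.8% and 1.58% of all counts in wild type I, II and III while their shares were 7.94%, 8.47% and 8.6% under the *mus-52* label. Down-regulated genes took 14.4%, 20.7% and 21.7% of the wild-type counts and 3.5%, 3.29% and 3.47% of the others.

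**Figure D1:**
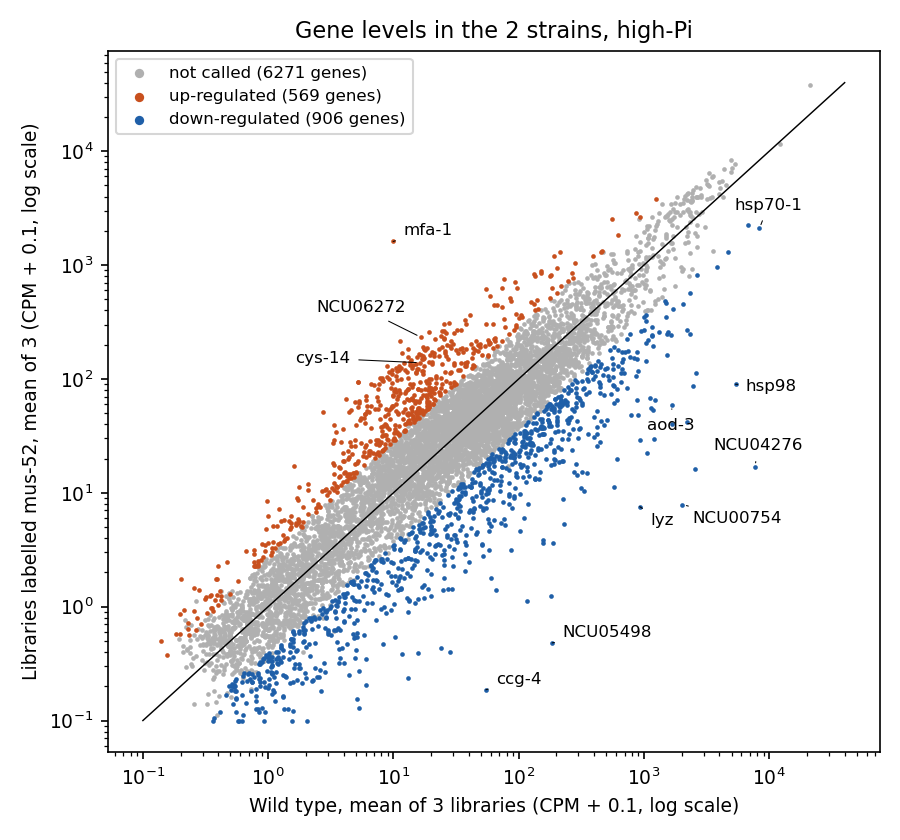
Mean CPM of each tested gene in the 3 wild-type libraries (x axis) and the 3 libraries labelled mus-52 (y axis), both on log scales with 0.1 CPM added. The 569 up-regulated genes (orange) lie above the line of equal level, with mfa-1 farthest from it, and the 906 down-regulated genes (blue) lie below it and reach farther, to ccg-4 and NCU05498.

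Without wild-type replicate I, 842 genes (10.8% of 7819 tested) were up-regulated and 984 (12.6%) down-regulated. Of the DEGs found with all libraries, 538 up-regulated and 813 down-regulated genes were also DEGs then, 31 and 93 were not, and 304 and 171 others were added. On a log2(CPM + 0.5) scale, wild-type replicate I lay nearer to the libraries labelled *mus-52* than to wild type II and III for some genes. These were 294 DEGs that fell (32.5%) and 71 that rose (12.5%), against 44% of all genes tested. The DEGs were called from these same libraries, and a wild-type replicate near the other strain makes a call less likely. The lower shares among DEGs are thus no independent result. A list of 185 tested genes that respond to mating type in published arrays or carry a mating-type motif held 57 up-regulated and 92 down-regulated genes, and 512 and 814 DEGs remained when it was left out. That list was drawn from genes called in these same libraries, so its count is no independent evidence of a mating-type share.

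Genes of ribosome assembly rose together. Ribosome assembly starts in the nucleolus, where small nucleolar ribonucleoproteins, helicases and GTPases process and fold the ribosomal RNA precursor. All 62 genes whose product names in the study's tables speak of this process were up-regulated DEGs, with log2 fold changes from 1.89 to 3.83 and a median of 3.16. The product names were given for genes the study had called in these libraries, so that the count of 62 of 62 is no independent evidence of the direction. Without wild-type replicate I the 62 genes were again all up-regulated, with a median of 3.22. Their summed share of all counts was 0.169%, 0.152% and 0.126% in wild type I, II and III while under the *mus-52* label it was 0.905%, 1.08% and 1.08%, and wild-type replicate I was close to its group here.

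Within this group the largest difference was that of RRP5 (NCU06272, chromosome III, 2146807 to 2152833), which in yeast takes part in making both ribosomal subunits. It stood at 11.3, 22.9 and 15.1 CPM in the wild type and at 214, 231 and 253 CPM in the libraries labelled *mus-52* (log2 fold change 3.83, SE 0.86, adjusted p = 0.0055). Noc3 (NCU00337), a factor of the large subunit in yeast, stood at 7.11, 7.35 and 5.00 CPM against 82.2, 99.8 and 89.6 CPM (3.80, SE 0.87, adjusted p = 0.0059). In yeast, Utp10 (NCU00336), SOF1 (NCU01595) and Utp14 (NCU07058) belong to the small subunit processome, a particle around the U3 small nucleolar RNA. The Neurospora genes rose by 3.67, 3.71 and 3.63 on the log2 scale. SOF1 was at 5.64, 4.56 and 4.23 CPM against 54.4, 76 and 59.2 CPM, so that the wild-type libraries lay within 1.5 CPM of each other and far below the rest.

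The RNA helicases *dbp-4* (NCU04439), *dbp-10* (NCU07712), *drs-1* (NCU11175) and *has-1* (NCU09349) had log2 fold changes of 3.55, 3.56, 3.56 and 3.43. Smaller differences were found in the abundant core proteins of the small nucleolar particles. *nop-58* (NCU03396) had 109, 100 and 82.9 CPM in the wild type and 545, 670 and 664 CPM in the libraries labelled *mus-52* (2.69, adjusted p = 0.0062). Fibrillarin (NCU03702), the methyltransferase of these particles, had 165, 353 and 319 CPM against 995, 1030 and 1080 CPM (1.89, adjusted p = 0.016). BFR-2 (NCU04787), which was not on the list and whose yeast namesake is also a nucleolar factor, had 6.01, 6.50 and 2.79 CPM against 78.8, 101 and 103 CPM (4.21, SE 0.88, adjusted p = 0.0042). *un-18* (NCU08616), known in Neurospora as a temperature-sensitive lethal, rose by 3.81 (14.3, 14 and 10.9 against 165, 190 and 195 CPM).

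Among the other large increases were the following genes. NCU01651, a hypothetical protein, had 1.68, 3.28 and 2.94 CPM in the wild type and 45.1, 56.7 and 51 CPM under the *mus-52* label (4.30, SE 0.90, adjusted p = 0.0042). NCU04273, named an RNA-binding protein, had 7.63, 4.07 and 3.56 CPM against 78, 99.9 and 104 CPM (4.19). The groups did not overlap in either gene, and the same was true of the hypothetical protein genes NCU08518 (4.26), NCU06118 (4.03) and NCU02528 (3.72), of NCU03066, named a GTP-binding protein (3.86), and of NCU09489, named a phosphoglycerate mutase (3.87). NCU05252, the deoxyhypusine hydroxylase that completes the modified residue of translation factor eIF5A, rose by 3.65.

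**Figure D2:**
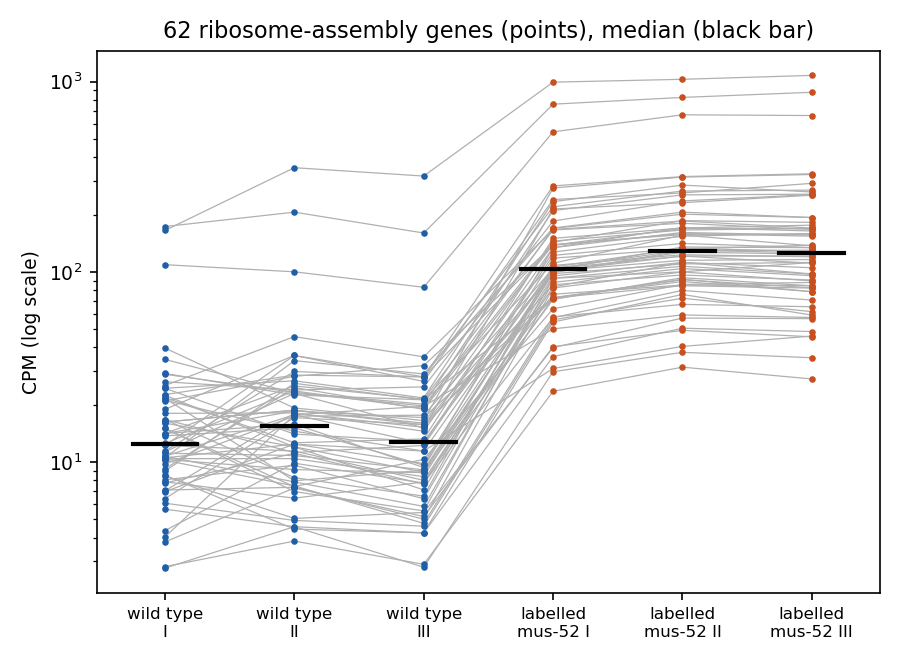
CPM (log scale) of 62 ribosome-assembly genes in each high-Pi library, one point per gene joined by grey lines, with the median as a black bar. The medians are 12.3, 15.4 and 12.7 CPM in wild type I, II and III and 103, 128 and 125 CPM in the libraries labelled mus-52, and wild-type replicate I does not stand apart.

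Of 6 tested genes for cytoplasmic ribosomal proteins (*crp*), none was a DEG, against 7.35% up-regulated among all genes, and *crp-15* alone passed the adjusted p (1.12, adjusted p = 0.026). It had 660, 1470 and 1830 CPM in the wild type and 2770, 2930 and 2920 CPM in the libraries labelled *mus-52*. The median of the 6 was 0.79 with all libraries and 0.46 without wild-type replicate I, which had the lowest value of *crp-15*. The growth transcripts set as markers of germlings, 7 *crp* genes and the histones *hH3* and *hH4-1*, summed to 11100, 20300 and 20300 CPM in the wild type and 27600 to 28400 CPM in the other libraries, with *crp-7* near 0 in all 6. Those of conidia summed to 876, 758 and 840 CPM against 85.4, 86.3 and 76.5 CPM, and *ccg-1* made up nearly all of the wild-type sum. The fall of this sum was thus that of *ccg-1*. Of the other conidial markers *ccg-9* was lower and *con-6* higher in the libraries labelled *mus-52*, while *con-8*, *con-10*, *con-13* and *eas* were no DEGs. In RNA from whole germlings, fewer cells of a stage and less RNA per cell cannot be told apart. The part of any shift in stage in the other gene groups was not tested.

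Some genes of nucleotide synthesis and sulfur uptake rose. Of 8 purine and pyrimidine genes, 3 were up-regulated and none down-regulated, against 7.35% and 11.7% of all genes, with a median of 0.91. *pyr-3*, the enzyme complex that starts pyrimidine synthesis, stood at 116, 243 and 175 CPM in the wild type and at 760, 818 and 840 CPM in the libraries labelled *mus-52* (2.18, SE 0.48, adjusted p = 0.005). *ad-7* (1.82) and *ad-5* (1.52), which act in purine synthesis, depended on wild-type replicate I. Without it they had log2 fold changes of 1.57 (adjusted p = 0.061) and 1.27, and then 1 of the 8 genes was a DEG. *ad-4* had 188, 227 and 251 against 586, 586 and 528 CPM, a log2 fold change of 1.35 that passed the adjusted p and not the fold threshold.

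Of 57 tested amino acid synthesis genes, 3 were up-regulated and 3 down-regulated, against 7.35% and 11.7% of all genes. The adjusted p alone was passed by 24 as higher and 8 as lower, against 23.5% and 25.3% of all genes, and the median was 0.44. The up-regulated genes were all of the sulfur pathway. *cys-14*, a sulfate permease, had 18.8, 16.4 and 13.7 CPM in the wild type and 172, 122 and 122 CPM in the libraries labelled *mus-52* (3.09, SE 0.82, adjusted p = 0.011). *cys-11*, the ATP sulfurylase that activates the sulfate taken up, had 167, 152 and 131 CPM against 1020, 800 and 744 CPM (2.51, adjusted p = 0.0067). *cys-16* had a log2 fold change of 1.98. The genes that fell were *ilv-5* of isoleucine and valine synthesis (−2.95, with 212, 259 and 283 CPM against 43.2, 33.1 and 21.1 CPM), *arg-15* (−1.92) and *arg-2* (−2.46), the last of which has several transcripts and stayed under 1.5 CPM throughout.

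Of 53 tested genes of respiration and of mitochondrial gene expression, 5 rose, 2 fell and 46 were no DEGs, and the median was 0.19. Over all genes 7.35% rose and 11.7% fell. *cyt-19*, a helicase for splicing mitochondrial group I introns, had 31.5, 37.1 and 35 CPM in the wild type and 251, 274 and 276 CPM in the libraries labelled *mus-52* (2.95, SE 0.60, adjusted p = 0.0035). *cyt-18*, the mitochondrial tyrosyl-tRNA synthetase that also helps these introns splice, had 31.5, 48.2 and 32.9 CPM against 215, 184 and 151 CPM (2.29). *cya-5* (2.01), needed for a cytochrome oxidase subunit, *cyt-2* (1.87), the cytochrome c heme lyase, and *cyt-5* (1.83), the mitochondrial RNA polymerase, rose as well.

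The 2 mitochondrial genes that fell are alternative routes for electrons. *aod-3* (NCU04874, chromosome IV, 576875 to 580204), an alternative oxidase, had 1050, 1770 and 2210 CPM in the wild type and 77.2, 50.9 and 49.9 CPM in the libraries labelled *mus-52* (−4.82, SE 0.64, adjusted p = 0.00039). *nde-1*, an external NAD(P)H dehydrogenase, had 234, 586 and 522 CPM against 80.4, 78.9 and 64.3 CPM (−2.59, adjusted p = 0.0018). The better known alternative oxidase gene *aod-1* had 717, 1950 and 2290 CPM against 1780, 1770 and 1160 CPM, and these ranges overlapped (−0.07, adjusted p = 0.89). None of 17 tested tricarboxylic acid cycle (*tca*) genes was a DEG, against 19% of all genes, with a median of −0.13.

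Heat shock genes were spread widely within the wild type. Of the 10 heat shock protein genes, 6 were down-regulated and 1 was up-regulated, against 11.7% and 7.35% of all genes, and the median was −1.76. *hsp98* (NCU00104, chromosome III, 2634913 to 2638616), a chaperone that pulls apart aggregated protein, stood at 151, 8040 and 7960 CPM in wild type I, II and III and at 100, 86.9 and 82.2 CPM in the libraries labelled *mus-52*. *hsp30*, a small heat shock protein, stood at 56.7, 3100 and 3520 CPM against 38.4, 44.1 and 42.9 CPM. Wild-type replicate I thus lay beside the libraries labelled *mus-52*, and wild type II and III alone carried the high values. The log2 fold changes were −5.91 (SE 1.20, adjusted p = 0.0037) for *hsp98* and −5.73 (SE 1.35, adjusted p = 0.0065) for *hsp30*, with errors that reflect this split, and −6.47 and −6.30 without wild-type replicate I.

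The mitochondrial chaperone gene *hsp78* followed the same order with 66.7, 1780 and 1580 CPM against 64.8, 49.1 and 50.8 CPM (−4.38, and −4.93 without wild-type replicate I). *hsp70-1* had 2060, 11200 and 11800 CPM against 2170, 2020 and 2100 CPM, so that the groups overlapped at wild-type replicate I (−1.99, adjusted p = 0.018). *hsp80*, the Hsp90 chaperone, fell by 1.85 and *hsp90a* fell by 1.66. *hsp60* and *hsp70-5* had 308, 1920 and 2230 and 583, 3190 and 3860 CPM in the wild type, with wild-type replicate I below every library labelled *mus-52*. Their log2 fold changes of −0.35 (adjusted p = 0.58) and −0.42 (adjusted p = 0.49) did not pass with all libraries. Without wild-type replicate I both passed the adjusted p as lower, as 9 of the 10 genes did. With that replicate left out in both media they were at −0.87 and −0.93. *hsp88* has several transcripts and was at 1.29 to 7.59 CPM. *hsp70-2* went the other way, with 537, 1220 and 1050 CPM against 2380, 2570 and 3030 CPM (1.51, adjusted p = 0.025), and it did not pass without wild-type replicate I (1.23, adjusted p = 0.062).

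Among 9 of the 10 heat shock genes, wild-type replicate I was nearer to the libraries labelled *mus-52* than to its own group, against 44% of all genes tested. Without that library 7 of the 10 were down-regulated and none up-regulated, and the median was −2.15. Without wild type III 3 were down-regulated, and without wild type II or any 1 library labelled *mus-52* 4 were. The share of all counts on the 10 genes was 0.719% in wild-type replicate I, 3.57% and 3.63% in wild type II and III, and 0.958% to 1% in the libraries labelled *mus-52*. SIS1 (NCU03732), in yeast a partner of Hsp70, had 216, 3520 and 3710 CPM against 93.1, 93.1 and 75.9 CPM (−4.83). For *hsp98*, *hsp30*, *hsp78*, *hsp70-1*, *hsp80* and SIS1, wild type II and III thus stood above the other 4 libraries.

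**Figure D3:**
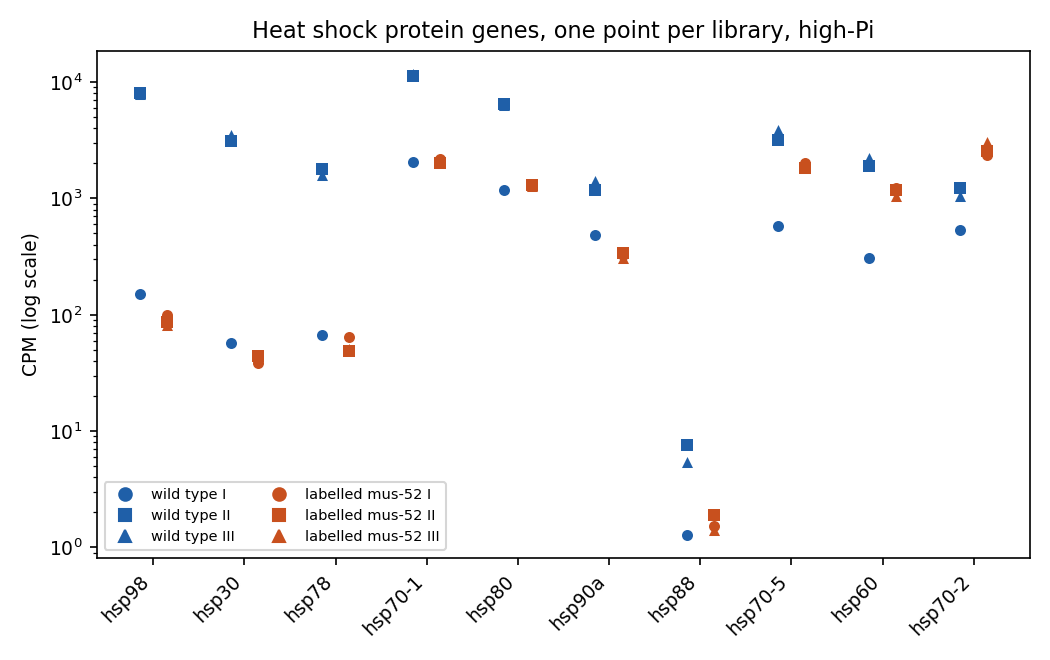
CPM (log scale) of the 10 heat shock protein genes in the 6 high-Pi libraries, blue for wild type and orange for the libraries labelled mus-52, with circles, squares and triangles for replicates I, II and III. Wild-type replicate I (blue circle) lies at the orange points for hsp98, hsp30, hsp78, hsp70-1 and hsp80, at 151 CPM for hsp98 where wild type II and III are at 8040 and 7960 CPM.

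NCU05498, NCU04276 and NCU00754 had the largest decreases after *ccg-4* among genes with counts in the libraries labelled *mus-52*. NCU04276 (chromosome V, 5467674 to 5469105), a hypothetical protein gene, was at 2630, 9560 and 10900 CPM in the wild type and at 29.4, 8.98 and 11.9 CPM in the libraries labelled *mus-52* (−8.84, SE 0.80, adjusted p = 4.2e-05). NCU00754 (chromosome I, 7302928 to 7305736), named a multidrug resistance protein, was at 176, 2690 and 3210 CPM against 12, 4.84 and 6.52 CPM (−8.01, SE 1.04, adjusted p = 0.00033). In both genes the lowest wild-type library was replicate I, and it was still more than 10 times any library labelled *mus-52*. NCU05498 was at 3.30, 236 and 316 CPM against 0.445, 0.287 and 0.409 CPM (−8.87, SE 1.87, and −9.44 without wild-type replicate I), and NCU07257, with an F-box domain, was at 787, 3320 and 3620 CPM against 17.6, 14.6 and 16.1 CPM (−7.32).

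The lysozyme gene *lyz*, on the study's clock-related list (NCU00701, chromosome I, 7494616 to 7496064), had 584, 1090 and 1100 CPM in the wild type and 7.66, 8.49 and 6.22 CPM in the libraries labelled *mus-52* (−6.96, SE 0.73, adjusted p = 9.7e-05). NCU07351, named an α-glucuronidase, fell by 6.79 on the log2 scale, NCU00306, a transporter of the major facilitator family, fell by 5.49, and NCU03660, named Sfk1, fell by 5.37. NCU07082, named an aspartyl-tRNA synthetase, fell by 5.00. NCU08720, a hypothetical protein, had 17.4, 222 and 305 CPM against 1.14, 0.902 and 1.36 CPM (−7.30), and NCU06586, named an AN1 zinc finger protein, had 25.2, 477 and 440 CPM against 12, 11 and 9.68 CPM (−4.85). *adh-1*, an alcohol dehydrogenase with several transcripts, had 7.23, 85.8 and 105 CPM against 1.66, 1.07 and 1.14 CPM (−5.65). Without wild-type replicate I the following 6 genes were again lower, at −7.19 for *lyz*, −7.30 for NCU07351, −5.94 for NCU00306, −5.68 for NCU03660, −5.38 for NCU07082 and −6.18 for *adh-1*.

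Cell wall protein genes fell where they changed. Of 16 tested genes for anchored (*acw*) and non-anchored (*ncw*) wall proteins, 6 were down-regulated and none up-regulated, against 11.7% and 7.35% of all genes, and the median was −0.90. *acw-12* had 736, 510 and 566 CPM in the wild type and 14.2, 24.6 and 20.9 CPM in the libraries labelled *mus-52* (−4.93, SE 0.49, adjusted p = 8.2e-05). *ncw-3* had 457, 1340 and 1580 CPM against 54.5, 66.4 and 82.3 CPM (−4.06, adjusted p = 0.0013). *acw-4* had 25.6, 295 and 362 CPM against 8.13, 10.5 and 7.69 CPM (−4.70), with wild-type replicate I close to the other strain. *acw-3*, *ncw-1* and *ncw-6*, the last with several transcripts, fell by 1.69, 2.54 and 4.21.

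Genes first found by their link to conidia or the clock (*con* and *ccg*) were mixed. Of 14 tested, 4 were down-regulated and 1 was up-regulated, against 11.7% and 7.35% of all genes, with a median of −1.01. Among the 4 was *ccg-4*, the pheromone precursor of *mat A* strains, with the lowest value of the list (−9.24). The 4 became 6 without wild-type replicate I and 2 without wild type II, wild type III, or replicate I or II under the *mus-52* label. *ccg-1*, a glucose-repressible stress gene, was at 855, 708 and 779 CPM in the wild type and at 49.7, 53 and 41.3 CPM in the libraries labelled *mus-52*, which is among the tightest of the large differences (−4.02, SE 0.26, adjusted p = 5.9e-06). *ccg-9*, a trehalose synthase, was at 9.40, 40.3 and 48.1 CPM against 4.74, 6.19 and 7.28 CPM (−2.42, adjusted p = 0.018). *ccg-14* fell by 1.76. *con-6*, a conidiation gene, went the other way from 1.96, 1.09 and 1.5 CPM to 20, 16 and 15.8 CPM (3.48, SE 0.90, adjusted p = 0.0096). *con-8*, *con-10*, *con-13* and *eas* were at 0.287 to 6.97 CPM in all 6 libraries and none of them was a DEG.

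Pheromone genes marked the mating types. *mfa-1* (NCU16992, chromosome V, 3396270 to 3397430) was at 3.34, 6.07 and 20.1 CPM in the wild type and at 2700, 1540 and 593 CPM in the libraries labelled *mus-52* (7.36, SE 0.92, adjusted p = 0.00029). *ccg-4* (NCU02500, chromosome I, 2531832 to 2533997) was at 93.1, 35 and 35.6 CPM against 0.0535, 0.0410 and 0.164 CPM (−9.24, SE 0.65, adjusted p = 1e-05). These were the highest and the lowest fold changes of all genes tested. The pheromone receptor genes *pre-2* (2.27) and *pre-1* (0.34, adjusted p = 0.39) were under 3 CPM in every library.

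Genes of acetate use fell where they changed, and genes of the answer to oxidants were mixed. Of 6 *acu* genes, which serve growth on acetate through the glyoxylate cycle and gluconeogenesis, 4 were down-regulated, against 11.7% of all genes, and the median was −1.79 (−2.05 without wild-type replicate I). *acu-3*, the isocitrate lyase, had 637, 2080 and 2400 CPM in the wild type and 520, 351 and 361 CPM in the libraries labelled *mus-52* (−2.05, adjusted p = 0.0069). *acu-6*, the phosphoenolpyruvate carboxykinase, had 447, 1010 and 1060 CPM against 178, 161 and 121 CPM (−2.45, SE 0.31, adjusted p = 0.00029). The regulator gene *acu-15*, whose product turns on acetate genes, had 167, 813 and 740 CPM against 87.1, 72.7 and 98.4 CPM (−2.73). *acu-9*, the malate synthase, has several transcripts and fell by 1.52.

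Of 10 tested menadione-induced (*mig*) genes, first found as genes that answer this oxidant, 4 fell and 1 rose, against 11.7% and 7.35% of all genes, with a median of −1.03. *mig-4* had 90.8, 585 and 592 CPM against 32.3, 29 and 15.9 CPM (−4.04, and −4.51 without wild-type replicate I), and *mig-6* had 330, 1750 and 1910 CPM against 276, 291 and 205 CPM (−2.37). *mig-12* rose from 39.6, 27.2 and 27.2 CPM to 146, 115 and 272 CPM (2.5, adjusted p = 0.0015). Catalases, which break down hydrogen peroxide, differed in direction. *cat-3* rose from 39.1, 47.1 and 54.8 CPM to 251, 173 and 174 CPM (2.09, SE 0.36, adjusted p = 0.0019), while *cat-1* fell from 136, 70.7 and 72.8 CPM to 32, 21 and 11.8 CPM (−2.11, SE 0.40, adjusted p = 0.0026). *cat-2* had 20.6, 160 and 167 CPM against 17.3, 14.2 and 18.9 CPM (−2.78, adjusted p = 0.025), with wild-type replicate I beside the other strain.

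Proteasome and vacuolar ATPase genes shifted by little and in 1 direction. The proteasome breaks down ubiquitin-tagged protein, and of its 28 tested genes 19 passed the adjusted p as lower and none as higher, against 25.3% and 23.5% of all genes, with a median of −0.54. Only *rpn-4* was a DEG, at 258, 857 and 594 CPM in the wild type and 99.6, 109 and 104 CPM in the libraries labelled *mus-52* (−2.45, adjusted p = 0.0026), a gene whose yeast namesake is the transcription factor of proteasome genes. *rpn-10*, among the larger decreases of the rest, had 251, 252 and 246 CPM against 144, 131 and 116 CPM (−0.94, SE 0.15, adjusted p = 0.0012). The vacuolar ATPase acidifies the vacuole, and 6 of its 14 genes passed as lower and none as higher, with a median of −0.51. *vma-8* had 86.7, 79.4 and 98.1 CPM against 56.1, 56.3 and 49 CPM (−0.71).

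**Figure D4:**
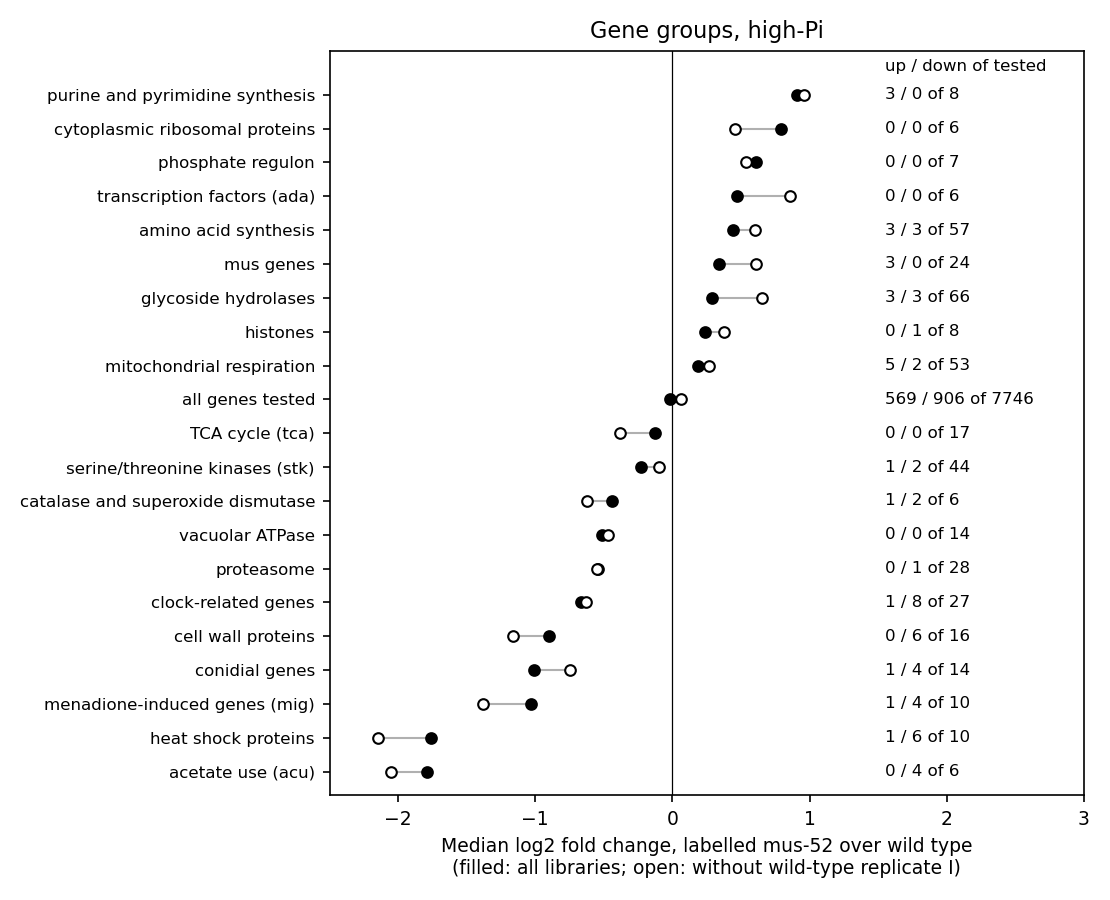
Median log2 fold change of each gene group of at least 6 tested genes, filled for all libraries and open without wild-type replicate I, with the numbers of up-regulated, down-regulated and tested genes at the right. The groups run from −1.79 for acetate use to 0.91 for purine and pyrimidine synthesis with all genes tested at −0.02, and no gene group other than all genes tested (0.06) changes its sign when that library is left out. The ribosome-assembly and mating-type lists are not drawn.

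Few of the tested *stk* kinase genes were DEGs. Of 44 tested serine/threonine kinase (*stk*) genes, 1 rose and 2 fell, against 7.35% and 11.7% of all genes, with a median of −0.23. *stk-39* had 143, 698 and 1010 CPM in the wild type and 147, 117 and 125 CPM in the libraries labelled *mus-52*, so that the groups overlapped at wild-type replicate I (−2.25, adjusted p = 0.0072). *stk-33* had 69.6, 101 and 110 CPM against 34.7, 26.7 and 27.4 CPM (−1.66), and *stk-42* rose by 1.92 from 4.12, 2.19 and 2.01 CPM to 8.46, 13 and 10.8 CPM. NCU07626, named a thermoresistant gluconokinase, fell from 7.34, 9.66 and 7.58 CPM to 0.463, 0.246 and 0.409 CPM (−4.39, SE 0.32, adjusted p = 1.3e-05). NCU04597, named a mitogen-activated protein kinase, fell by 2.21.

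Among transcription factors, NCU00038, of the C2H2 zinc finger class, rose from 14.7, 10.3 and 6.45 CPM to 60, 69.2 and 70.5 CPM (2.66, SE 0.52, adjusted p = 0.0032). NCU02142, a putative C6 factor, fell from 98.9, 1270 and 1340 CPM to 63.6, 30.3 and 50.1 CPM (−4.23, SE 0.75, adjusted p = 0.0019). NCU05257, with homeobox and C2H2 domains, fell from 447, 503 and 396 CPM to 96.7, 73.3 and 84.5 CPM (−2.40, adjusted p = 0.0019). NCU03643, named cutinase transcription factor 1 beta, had 17.7, 89.3 and 79.7 CPM against 20.4, 17.4 and 21.7 CPM, with wild-type replicate I in the range of the other strain (−1.65, adjusted p = 0.013). NCU08507, named zinc finger protein zpr1, had 33.8, 2430 and 2090 CPM against 153, 167 and 167 CPM, with wild-type replicate I below all other libraries (−3.22, SE 1.08, adjusted p = 0.029).

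The core clock genes did not move as 1 group. The clock runs as a loop in which the white collar proteins turn on *frq* and the FRQ protein, with FRH and casein kinase 1, shuts them off. *frh*, the helicase that also serves RNA surveillance, rose from 35, 27.2 and 22.5 CPM to 171, 200 and 215 CPM (2.79, SE 0.56, adjusted p = 0.0035). *frq* (0.96, adjusted p = 0.022) and *wc-2* (0.58, adjusted p = 0.034) passed the adjusted p alone. *wc-1* (−1.69, adjusted p = 0.0073) and *ck-1a* (−2.61, adjusted p = 0.0097) were DEGs, but both have several transcripts, and *ck-1a* was under 1.1 CPM in every library. Of 27 tested clock-related genes chosen by the study, 1 rose and 8 fell, against 7.35% and 11.7% of all genes, with a median of −0.67. The 8 became 5 without wild type II or *mus-52* replicate I. NCU01555 was the tightest of those that fell, with 170, 115 and 153 CPM against 15.4, 13.1 and 10.5 CPM (−3.49, SE 0.21, adjusted p = 5.9e-06).

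DNA repair genes were mostly no DEGs. Of 24 mutagen sensitive (*mus*) genes chosen by the study, 3 rose and none fell, against 7.35% and 11.7% of all genes. The adjusted p alone was passed by 9 as higher and 4 as lower, against 23.5% and 25.3% of all genes, and the median was 0.34. Among the 4 was *mus-52* itself (−1.02, adjusted p = 0.044), which did not pass without wild-type replicate I. Without that library 12 genes of the list passed as higher and 3 as lower. *mus-26* was at 5.31, 2.67 and 2.94 CPM in the wild type and at 16.1, 15 and 17.7 CPM in the libraries labelled *mus-52* (2.14, SE 0.44, adjusted p = 0.004). *mus-50* (1.67) and the RecQ helicase gene *qde-3* (1.62), which also acts in gene silencing, were the others. Without wild-type replicate I, 6 genes of the list rose and 1 fell, and 1 rose without wild type III. The partners of MUS-52 in end joining, *mus-51* (0.42, adjusted p = 0.14) and *mus-53* (−0.45, adjusted p = 0.44), did not pass the test, and *mus-53* was at 39.5, 13 and 8.20 CPM against 13.1, 10.5 and 21 CPM, with overlapping ranges. *mus-11* (0.65, adjusted p = 0.082), a neighbour of NCU04276 on chromosome V, did not pass either. With replicate I of the wild type left out in both media, the log2 fold changes were 0.68 for *mus-51*, 0.46 for *mus-53* and 1.09 for *mus-11*.

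The DNA methyltransferase gene *dim-2* rose from 25.3, 13.4 and 9.08 CPM to 63.7, 61 and 63.1 CPM (1.97, SE 0.54, adjusted p = 0.013), and by 2.48 without wild-type replicate I. *rid-1*, the putative methyltransferase of repeat-induced point mutation, was at 0.607 to 1.23 CPM in all 6 libraries (0.20, adjusted p = 0.64). Of 8 tested histone genes, 1 was a DEG, against 19% of all genes. This was *hH1* (−1.74), which has several transcripts and was at 0.682 to 3.52 CPM. None of 7 tested genes of the phosphate regulon was a DEG, against 19% of all genes, and by the adjusted p alone 2 were higher and 1 was lower. *nuc-1*, the activator, had 103, 201 and 192 CPM against 91, 79.8 and 104 CPM (−0.85, adjusted p = 0.015), and *nuc-2*, which signals low phosphate to the PREG and PGOV pair, had 81.8, 72.9 and 55 CPM against 153, 126 and 158 CPM (1.06, adjusted p = 0.0074). Of 66 tested glycoside hydrolase (*gh*) genes, 3 rose and 3 fell, against 7.35% and 11.7% of all genes, with a median of 0.29. Without wild-type replicate I 8 rose, and without wild type III 1 rose. *gh35-1* (1.78) and *gh5-1* (−2.74) were the outer members of that list.

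A few decreases were made larger by a high value in wild-type replicate I alone. NCU05004 had 76.8, 3.58 and 4.95 CPM in the wild type and 0.249, 0.0820 and 0.572 CPM under the *mus-52* label. Its log2 fold change was −6.50 with all libraries and −3.75 without wild-type replicate I. NCU06977 had 53.5, 14.3 and 14.7 CPM against 5.77, 6.15 and 6.76 CPM (−2.15, and −1.21 without that library). NCU09406, named a copper amine oxidase, had 310, 11.1 and 8.72 CPM against 3.72, 6.56 and 7.61 CPM. Its log2 fold change of −4.21 (adjusted p = 0.018) shrank to −0.73 (adjusted p = 0.37) without wild-type replicate I, so that its call rested on 1 library. *mus-52* itself, with 75.9 CPM in that library, shrank likewise to −0.43 (adjusted p = 0.23) without it. With replicate I of the wild type left out in both media *mus-52* was at −0.47 (adjusted p = 0.013).

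For 7 of the down-regulated genes no count fell on any library labelled *mus-52*. NCU07600 had 0, 59 and 43 counts in wild type I, II and III, and it was at least 50.7-fold lower in the other strain when 3 counts over the group are taken as the floor. On the same floor NCU06121, with 12, 26 and 49 counts, was at least 43.2-fold lower, and NCU07061, with 23, 6 and 10 counts, was at least 19.4-fold lower. NCU01735, NCU07087, NCU04631 and NCU09170 were at least 22.4-fold, 13.9-fold, 13.4-fold and 7.95-fold lower. All 7 were under 4 CPM in the wild type. No gene among the up-regulated DEGs was without counts in all wild-type libraries. These floors cover counting error only.

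Down-regulated genes lay side by side along the chromosomes more often than the share of such genes over the genome. Of 905 down-regulated genes with a following tested gene, 226 (25%) had a down-regulated gene next to them, against 11.7% of all genes, and 74 of 569 up-regulated genes (13%) were followed by an up-regulated one, against 7.35%. Runs of 3 or more consecutive tested genes called the same way numbered 42 for decreases (150 genes) and 9 for increases (29 genes). By chromosome, down-regulated genes were 9.80% of those tested on chromosome I and 15.6% on chromosome VI, the lowest and the highest shares. Neighbouring genes are not independent, and reads shared between overlapping genes were not resolved in the counts.

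The longest run held 9 down-regulated genes on chromosome VI, from 140543 to 204202 (NC12), with 17 untested genes between them. NCU07108 fell there from 59.9, 89 and 112 CPM to 2.48, 4.02 and 2.67 CPM (−4.84, SE 0.39, adjusted p = 2.1e-05). NCU07098 fell from 281, 457 and 469 CPM to 36.5, 37.8 and 65.7 CPM (−3.11). NCU07110 had 177, 104 and 91.7 CPM against 36.2, 26.7 and 37.5 CPM (−1.89), whereas its log2 fold change in low-Pi was 1.26 (adjusted p = 0.012), or 0.91 without wild-type replicate I in both media. In low-Pi 4 of the 9 genes were down-regulated. Without wild-type replicate I all 9 remained down-regulated in high-Pi.

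On chromosome I, a run of 5 from 2530285 to 2543356 held *ccg-4* and its neighbours. Beside the pheromone gene, NCU02502, named a sterol methyltransferase, fell from 169, 1230 and 1220 CPM to 58.3, 61.1 and 75.7 CPM (−3.74, SE 0.60, adjusted p = 0.0012), and all 5 genes were also down-regulated in low-Pi. *hsp70-1* stood in a run of 4 on chromosome II, from 73202 to 86147. Its neighbours NCU09603 (20.1, 27.3 and 26.9 CPM against 0.944, 0.985 and 1.99 CPM) and NCU09604 (7.34, 15.5 and 15.1 CPM against 0.837, 0.615 and 1.85 CPM) fell by 4.24 and 3.50, with wild-type replicate I far from the other strain, unlike at *hsp70-1*. The longest runs of increases had 4 genes, and 1 of them, on chromosome V from 3393820 to 3409629, held *mfa-1* with NCU01257 (3.07), NCU01259 (2.97) and NCU01260 (2.49).

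**Figure D5:**
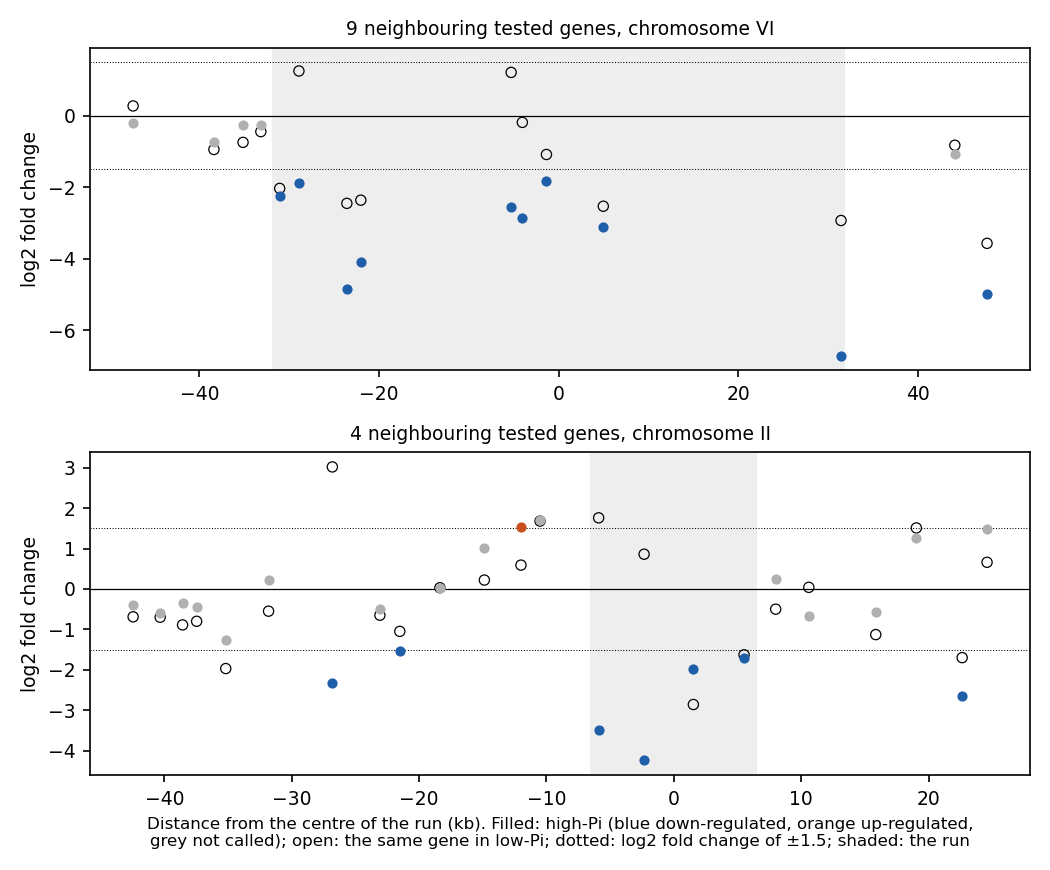
Log2 fold change of tested genes against distance (kb) from the centre of the run of 9 genes on chromosome VI (top) and the run of 4 with hsp70-1 on chromosome II (bottom), filled for high-Pi (blue down-regulated, orange up-regulated, grey no DEG) and open for the same gene in low-Pi. All filled points in the shaded runs lie below −1.5, while the open points of 4 of these genes lie above 0.

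The difference between the strains was set against that in low-Pi, which rests on 6 other libraries. That contrast gave 452 DEGs that rose (5.84%) and 582 that fell (7.51%), and without wild-type replicate I in both media it gave 968 that rose and 878 that fell of 7804 tested, so that more genes rose than fell. Of the high-Pi DEGs, 157 up-regulated genes (27.6% of the high-Pi and 34.7% of the low-Pi ones) and 429 down-regulated genes (47.4% and 73.7%) were called the same way in low-Pi, and 30 were called the opposite way. These shares depended on the wild-type libraries that stood apart. The high-Pi DEGs of all libraries were also set against low-Pi calls from the fit without replicate I of the wild type in both media. Then 473 of 569 genes that rose (83.1%) and 526 of 906 that fell (58.1%) were called the same way in low-Pi. For the ribosome-assembly genes, 21 of 62 were up-regulated in low-Pi with all libraries and 60 of 62 without that replicate.

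The test of the difference itself, as a strain by phosphate interaction, passed an adjusted p of 0.05 for 460 genes (5.94%), 52 with a fold change that was higher in high-Pi and 408 with one that was lower. With the log2 fold threshold of 1.5 as well, 330 genes (4.26%) passed. The adjusted p was passed by 1991 genes (25.5% of 7804) when replicate I of the wild type was left out in both media, 949 higher and 1042 lower, and 447 of the 460 were among them. *ccg-1* was the clearest named case. In low-Pi it did not pass the test (0.34, adjusted p = 0.24), at 106, 164 and 204 CPM in the wild type and 203, 176 and 221 CPM in the libraries labelled *mus-52* (interaction −4.37, SE 0.33, adjusted p = 7e-05, and −4.04 without replicate I of the wild type). *clr-2*, the activator of cellulase genes, was at 9.36, 3.34 and 3.77 CPM against 2.32, 4.43 and 4.69 CPM in high-Pi, with overlapping ranges, and at 1.80, 2.30 and 1.75 CPM against 20.2, 23.6 and 22.4 CPM in low-Pi (interaction −4.06, SE 0.56, adjusted p = 0.002, and −3.35 without that replicate).

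In low-Pi *mus-53* was at 9.38, 8.12 and 6.66 CPM in the wild type and at 39.7, 35.3 and 49.8 CPM in the other strain, with no overlap (interaction −2.82, SE 0.69, adjusted p = 0.036, and −1.96 without replicate I of the wild type). NCU03649, a hypothetical protein, had log2 fold changes of 0.30 in high-Pi and 2.25 in low-Pi (interaction −1.96, adjusted p = 0.0045, and −1.66 without that replicate). In the other direction, NCU07748, a hypothetical protein, was at 23.9, 15.1 and 18.4 CPM against 294, 187 and 291 CPM in high-Pi (3.75), and at 140, 30.7 and 28.3 CPM against 114, 54.7 and 89 CPM in low-Pi (interaction 3.37, adjusted p = 0.029, and 2.43 without that replicate). The neighbours of *hsp70-1*, NCU09603 and NCU09604, were lower in high-Pi and had low-Pi log2 fold changes of 0.86 (adjusted p = 0.23) and 1.76 (adjusted p = 0.037), which were 0.29 (adjusted p = 0.23) and 1.19 (adjusted p = 0.0046) without that replicate.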

How the data were processed

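RNA of germlings was sequenced in 12 libraries as paired-end reads. The authors trimmed reads by quality, mapped them to the NC12 assembly with Bowtie2 (2.1.0) after FastQC (0.11.2) and deposited raw counts per gene. The counting tool, its handling of strand and of shared reads are not given in the sources used here. Further tables hold the authors' DESeq (1.28.0) comparisons of the media within each strain and were not used. Counts of all 12 libraries in 4 groups (3 each) were fitted with edgeR 4.0.16 in R 4.3.3 (TMM, filterByExpr, robust quasi-likelihood test, Benjamini-Hochberg adjustment over 7746 genes), tested on simulated data. SE is the fold change over the root of F. CPM use TMM-scaled totals (factor 1.32 for wild-type replicate I, 0.9148 to 1.026 in the other high-Pi libraries), and a floor of 3 counts in a library is 0.0534 to 0.171 CPM of the unscaled totals. Symbols and coordinates came from the RefSeq table of NC12 (9729 of 9730 genes matched, 1118 with a symbol), and product names from the study's supplementary tables.

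Genes named follow a rule that takes *mus-52*, the *mat A* genes, *mfa-1*, *ccg-4* and 2 reference genes, the 15 non-overlapping DEGs with the largest change in each direction and the 15 with a symbol or product name, up to 4 members of each list, genes the study names, and genes in runs of 3 or more. Not all of them are printed. Other members of lists, and genes chosen for wild-type replicate I, were named after their values were seen. Members and lists were chosen with earlier results of these data known. Lists follow gene symbols, except the *mus*, clock, mating-type and ribosome-assembly lists, taken from the study's tables. The list by symbol for ribosome biogenesis held 1 gene, *rbg-40* (1.54, adjusted p = 0.057). The symbol pattern meant for polymerase subunits matched only *rpa-1*, *rpa-2* and *rpa-3*, none a DEG (median 0.86). What these symbols stand for was not checked, so that list says nothing on polymerase genes. The 6 *ada* transcription factor genes held no DEG (median 0.47), against 19% of all genes, and 2 rose without wild-type replicate I (median 0.86). Alternatives were DESeq2 1.42.0, RLE factors, no filter, at least 10 counts in every library, the 6 high-Pi libraries alone, a replicate block, the adjusted p alone, the mating-type list left out, and each library left out.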

Additional observations from a re-analysis of the deposited data

Results flagged for a closer look

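The strain difference in high-Pi differed from that in low-Pi, by a test of the difference itself, for 460 genes. Of the genes named here these were NCU07748 (log2 difference 3.37), *cat-1* (−2.08), *ccg-1* (−4.37), NCU01555 (−2.02), NCU06977 (−3.93), NCU07626 (−2.28), *clr-2* (−4.06), NCU03649 (−1.96), *mus-53* (−2.82), NCU09603 (−5.10), NCU09604 (−5.25), NCU07108 (−2.39) and NCU07110 (−3.16), where a negative value means a lower fold change in high-Pi. Without replicate I of the wild type in both media *cat-1* no longer passed this test (−1.51, adjusted p = 0.12) and the other named genes did. No single library was tested as standing apart gene by gene, since groups of 3 are too small for that test.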

How the results depend on the processing

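Calls numbered 473 to 842 up-regulated and 766 to 984 down-regulated genes when 1 high-Pi library was left out, with the highest counts without wild-type replicate I, and 1821 and 1959 genes by the adjusted p alone. No gene was called in the opposite direction under any alternative. DESeq2 called 450 and 1017 genes, 429 and 900 of them shared. The *mus-52* difference was −1.01 with no filter (adjusted p = 0.051), −1.03 in the 6 high-Pi libraries alone (adjusted p = 0.066) and −1.30 to −0.43 with 1 library left out. Without wild-type replicate I in both media it was −0.47 (adjusted p = 0.013). The count of genes with a strain by phosphate interaction was 216 to 461 with 1 high-Pi library left out (254 and 216 without *mus-52* replicate I or II), 837 in DESeq2 and 1991 without wild-type replicate I in both media, and it could not be fitted in the 6 high-Pi libraries. The replicate numbers did not pair the strains (same-number deviations correlated at −0.134, −0.0172 and −0.122). With the replicate block 616 and 849 genes were called, *mus-52* was at −0.90 (adjusted p = 0.038) and 383 genes had an interaction. Of 122 DEGs named here, 106 kept an adjusted p of 0.05 or less under every alternative fitted. A direction was reversed in genes that were no DEGs. *Bml* was at −0.02 with at least 10 counts, *mus-53* at 0.46, *clr-2* at 0.03 and *Bml* at −0.09 without wild-type replicate I in both media. With 1 high-Pi library left out, the ranges were −0.05 to 0.18 for *Bml*, −0.80 to 0.50 for mus-53 (NCU06264), −0.78 to 0.09 for clr-2 (NCU08042), −0.04 to 0.39 for *rid-1*, −0.83 to 0.06 for *hsp60*, −0.88 to 0.01 for *hsp70-5* and −0.43 to 0.24 for *aod-1*.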
